A study of Mus musculus with 9 samples.

Results

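Transglutaminases are enzymes that join proteins by linking a glutamine of one to a lysine of another, or that turn glutamine into glutamate. Tgm2 encodes tissue transglutaminase, which deamidates gliadin peptides of gluten and is the main autoantigen of human celiac disease. Tgm1 and Tgm3 encode enzymes that cross-link the cornified envelope of skin, and in humans the Tgm3 product is the autoantigen of dermatitis herpetiformis, the skin form of gluten sensitivity. F13a1 encodes the catalytic A subunit of coagulation factor XIII, which cross-links fibrin and is made by cells of the platelet and macrophage lineages. These 4 genes were taken by name from a table of 54532 genes, and all 4 had a row.

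The table holds RNA sequencing of mouse duodenum, depleted of ribosomal RNA, in 3 groups of 3 libraries. CeD+GR mice were a delayed-type hypersensitivity (DTH) model of celiac disease, received composite nanoparticles of gliadin and rapamycin beforehand, and then had enhanced gluten stimulation. CeD mice were the same model with enhanced gluten stimulation and no such nanoparticles. Control mice were wild type (WT) with non-enhanced gluten stimulation, so that model and stimulation differ together between CeD and control, and the strain, age, particle dose and rapamycin alone are not given in the labels. Levels are given as FPKM, fragment counts scaled to gene length and library size, which can be compared between genes because they are per length. Whole reads were recovered from them, 15373260 to 16852104 per library, and a library is named by its group and replicate number. The library size behind the FPKM was 0.89 (CeD 2) to 1.16 (CeD 1) times the recovered reads, and so not the plain read total. Whether each library is its own mouse is not labelled, and the p-values therefore measure a spread between samples that may be technical.

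The enterocyte markers of duodenum were present in every library, with summed levels of 9257 to 38257 FPKM over 12 genes. Several libraries stood apart. Paneth cell markers summed to 1430 to 2895 FPKM in the 3 replicate 1 libraries and to 89.7 to 232 FPKM in the other 6. CeD+GR 3 held 140705 FPKM of gastric and Brunner gland markers, with at most 52.7 FPKM in any other library, and CeD+GR 2 held 480 FPKM of adipocyte markers, with at most 110 FPKM in any other. In CeD 1 the exocrine pancreas markers summed to 3898 FPKM, with a maximum of 55.1 FPKM in any other library. No label names a batch or a date. In bulk tissue, fewer cells of a type and less RNA per cell cannot be told apart.

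The members share the catalytic core of the family. The stretches below are 45 coding bases of the longest coding transcript of each member in GENCODE M21, on the build mm10, and show the codon of the catalytic cysteine in capitals, found as the single match to the conserved motif around it.
Tgm2: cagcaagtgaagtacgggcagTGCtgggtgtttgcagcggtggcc
Tgm1: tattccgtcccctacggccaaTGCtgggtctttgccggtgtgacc
Tgm3: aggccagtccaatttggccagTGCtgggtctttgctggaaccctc
F13a1: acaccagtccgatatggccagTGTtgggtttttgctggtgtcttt
The Tgm2 stretch lies in exon 6 at chr2:158131338-158131382 on the minus strand, and its cysteine is codon 277 of 686. The Tgm1 stretch lies in exon 7 at chr14:55709401-55709445 on the minus strand (codon 376), that of Tgm3 in exon 6 at chr2:130029751-130029795 on the plus strand (codon 273), and that of F13a1 in exon 7 at chr13:36946450-36946494 on the minus strand (codon 315). Between members, 26 bases (Tgm2 and F13a1) to 34 bases (Tgm3 and F13a1) of the 45 were identical. Over the whole transcripts only the longest run of identical bases was measured, not the share of identical bases. The longest run of identical bases between the coding transcripts of Tgm2 and of another member was 16 bases, with Tgm3, and with the other relatives it reached 17 bases, with Tgm5.

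Tgm2 was the abundant transglutaminase of the duodenum (ENSMUSG00000037820, chromosome 2, 158116402 to 158146436, minus strand). It averaged 13.7 FPKM over the 9 libraries, above 76.5% of the 14683 genes that had a mean of at least 0.5 FPKM and were tested. In each library it supplied 90.5% to 98.6% of the summed FPKM of the 9 transglutaminase genes in the table, namely the 4 members with Tgm4 to Tgm7 and Epb42. Tgm1 averaged 0.176 FPKM, F13a1 0.128 FPKM and Tgm3 0.0504 FPKM. Tgm2 stood above each of these in 9 of 9 libraries by 4.27 to 4.56 on the scale of log2(FPKM + 0.5) (two-sided exact sign-flip permutation test, p = 0.0039, the smallest that 9 libraries allow, adjusted p = 0.0078 over 6 pairs). The levels of the other members lie under the 0.5 added, which shrinks these differences and makes them more alike than the FPKM are. The order of the other members did not pass the test. Tgm1 lay above F13a1 in 7 of 9 libraries (exact permutation p = 0.465, adjusted 0.465), F13a1 above Tgm3 in 7 of 9 (0.102, adjusted 0.122) and Tgm1 above Tgm3 in 7 of 9 (0.0586, adjusted 0.0879). Of the 4 members, 1, Tgm2, passed the filter for the test across all genes.

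Tgm2 had 21.6, 6.17 and 8.71 FPKM in CeD+GR 1 to 3, on 1538, 448 and 656 reads. It had 22.1, 9.68 and 13.9 FPKM in CeD 1 to 3, on 1817, 643 and 1053 reads, and 22.4, 9.09 and 9.29 FPKM in control 1 to 3, on 1878, 613 and 722 reads. Each group thus held 1 high library, replicate 1, and a pair of lower ones, and the groups overlapped over nearly their whole range. Counting error was small beside this spread. The 95% exact Poisson interval of the lowest library, CeD+GR 2, ran from 5.61 to 6.77 FPKM. Reads are not independent molecules, and such intervals cover counting error only.

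**Figure D1:**
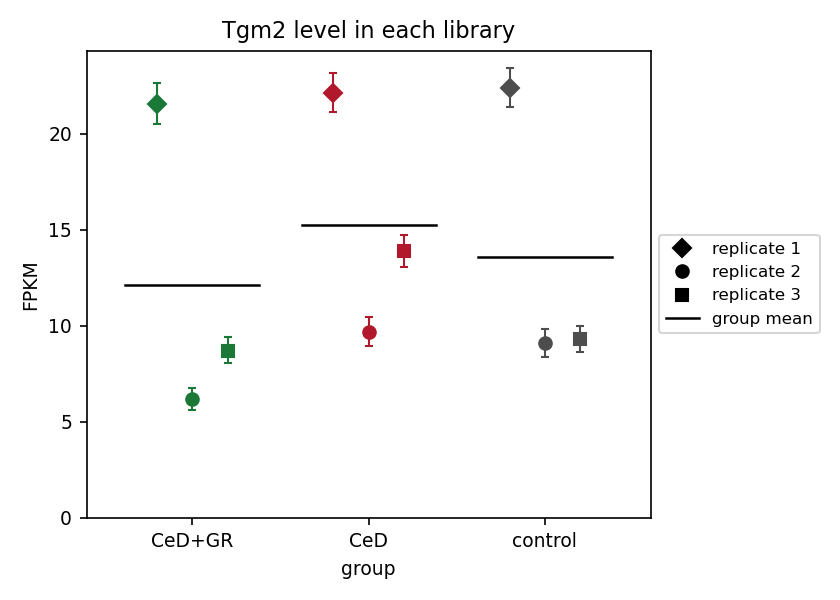
Tgm2 level in FPKM (vertical axis) in each library of CeD+GR, CeD and control (horizontal axis). Symbols give the replicate number, bars the 95% Poisson interval of the reads and lines the group mean. The 3 replicate 1 libraries sit between 21.6 and 22.4 FPKM, the other 6 between 6.17 and 13.9 FPKM.

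The comparison of CeD with control asks whether Tgm2 differs in the challenged model. Tgm2 averaged 15.2 ± 6.33 FPKM in CeD and 13.6 ± 7.62 FPKM in control (SD, n = 3 each). The log2 fold changes given here are differences of log2(FPKM + 0.5), a scale that shrinks the changes of low genes. For Tgm2 the log2 fold change was 0.21 (SE 0.52, 95% interval -0.98 to 1.40; limma adjusted p = 1). Over all genes tested, 0 of 14683 passed at an adjusted p of 0.05 in this comparison (0%), and 103 had an unadjusted p under 0.05. With limma-voom on the recovered reads 0 passed as well. The exact permutation p for Tgm2 was 0.6, where 3 libraries against 3 cannot give a p under 0.1. Without CeD 1 the value was -0.093, without control 2 it was -0.0064 and without control 1 it was 0.62. All 10 fibroblast markers, of cells known to make the enzyme, had positive log2 fold changes in the same comparison, beside 50.4% of all genes tested. Their sums were 125 to 172 FPKM in CeD and 85.1 to 137 FPKM in control, and none passed. Of the 11 endothelial markers 5 were positive, of the 13 macrophage markers tested 3 and of the 9 smooth muscle markers 7. The part of these cell types in the Tgm2 values was not tested.

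The comparison of CeD+GR with CeD sets mice that received the nanoparticles against mice that did not. Tgm2 averaged 12.1 ± 8.24 FPKM in CeD+GR and 15.2 ± 6.33 FPKM in CeD (SD, n = 3 each), a log2 fold change of -0.43 (SE 0.52, 95% interval -1.62 to 0.76; limma adjusted p = 1; exact permutation p = 0.5). Again 0 genes passed (0%), with 425 at an unadjusted p under 0.05 and 0 by limma-voom. Against control the CeD+GR level had a log2 fold change of -0.22 (SE 0.52, 95% interval -1.41 to 0.97; limma adjusted p = 1; exact permutation p = 0.5), with 0 genes called (0%), 400 at an unadjusted p under 0.05 and 0 by limma-voom. The 3 comparisons share libraries. Without CeD 1 and CeD+GR 3, the libraries with pancreatic and gastric transcripts, the log2 fold change of CeD+GR was 0.0041 against CeD and -0.089 against control. Without CeD+GR 1 it was -0.93 against CeD, and without CeD+GR 2 it was -0.065 against CeD and 0.14 against control. Without control 1 it was 0.19 against control. Of the 12 enterocyte markers 0 were positive in CeD+GR against either group, beside 51.1% of all genes tested against CeD and 49.7% against control. Their sums were 30704, 35436 and 9257 FPKM in CeD+GR 1 to 3, 14108 to 38257 FPKM in CeD and 17872 to 36673 FPKM in control, so that the low value is that of CeD+GR 3, the library with gastric transcripts. Of the 11 endothelial markers 11 were positive against either group, with sums of 34.2 to 48.0 FPKM in CeD+GR, 16.3 to 37.0 FPKM in CeD and 14.0 to 38.7 FPKM in control. Of the 10 fibroblast markers 3 were positive against CeD and 8 against control, and of the 9 smooth muscle markers 1 against either group. Of the 13 macrophage markers tested, 11 were positive against CeD and 8 against control. No marker of these lists passed, and their part in the Tgm2 values was not tested.

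Among libraries of the same replicate number, the CeD+GR library was the lowest of the 3 each time, but by very different margins. Libraries of the same number were not treated as matched pairs in the reported fit, since no label pairs them. Over all genes tested, the deviations of CeD+GR 3 correlated at -0.12 with those of CeD 3 and -0.11 with those of control 3. CeD+GR 1 had 0.37 with CeD 1 and 0.41 with control 1. CeD+GR 2 had 0.25 with CeD 2 and 0.40 with control 2, but 0.50 with CeD 3. CeD+GR 3 is also the library with gastric transcripts. In replicate 1, with 1 library a group and no test of its own, the ratio of CeD+GR to CeD was 0.975. In replicates 2 and 3 it was 0.637 and 0.628. The ratio of CeD to control was 0.988, 1.07 and 1.49 in replicates 1 to 3. With replicates 2 and 3 only, the log2 fold change of Tgm2 was -0.63 for CeD+GR against CeD (SE 0.29, limma adjusted p = 0.80) and 0.32 for CeD against control (SE 0.29, limma adjusted p = 1). Neither passed.

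**Figure D2:**
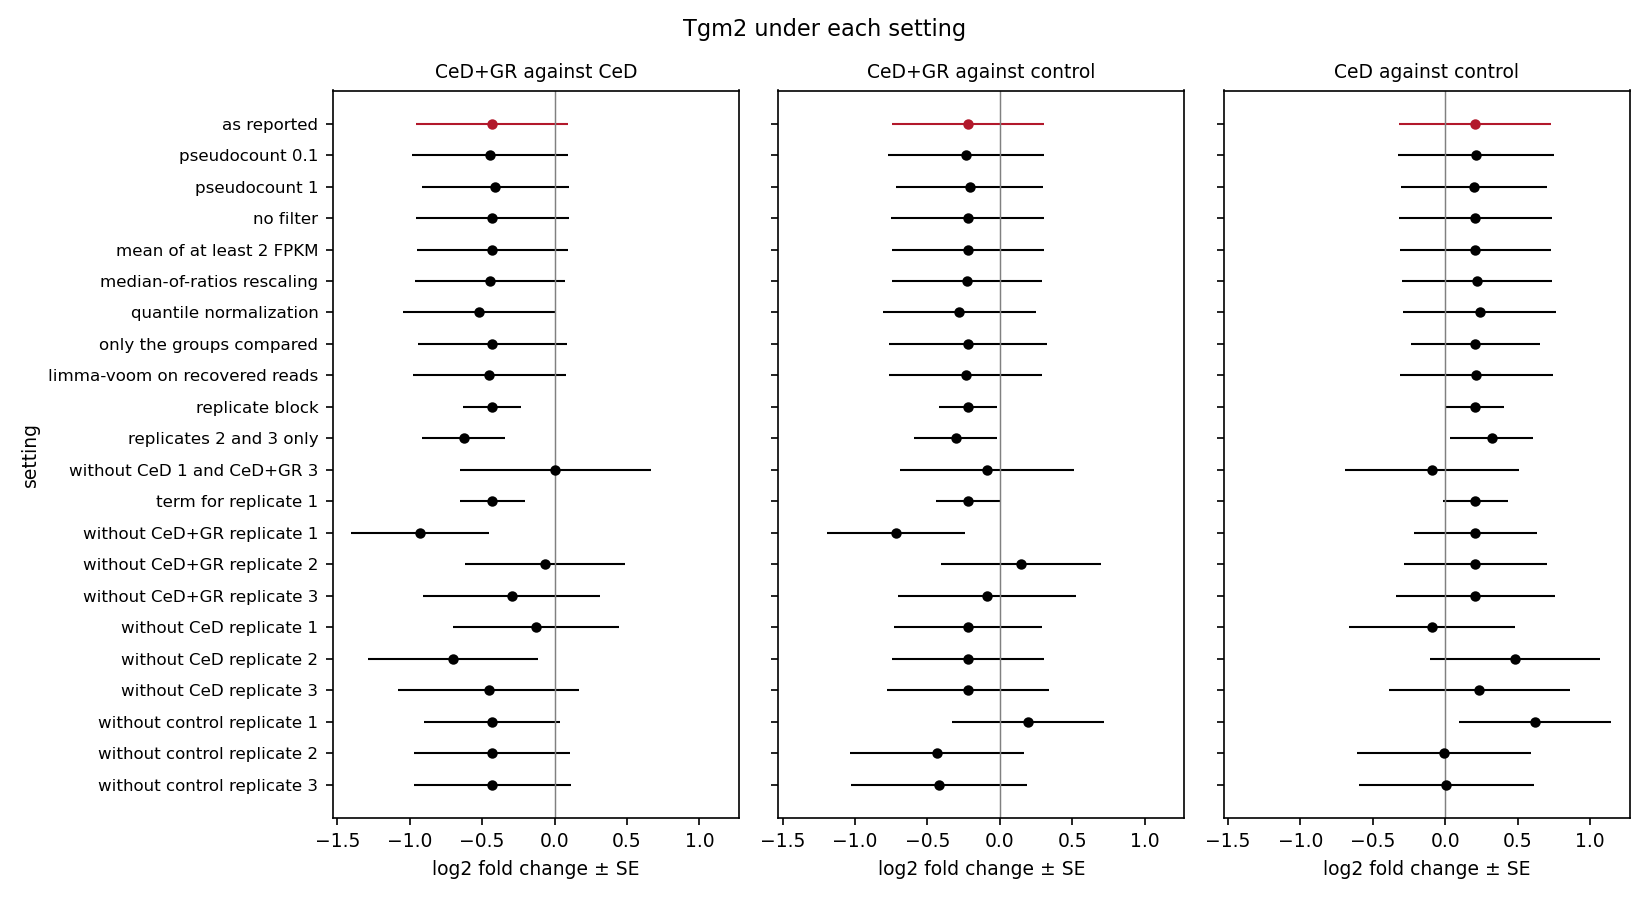
Log2 fold change of Tgm2 with its SE (horizontal axis) under the reported fit, in red at the top, and under each other setting (vertical axis), for CeD+GR against CeD, CeD+GR against control and CeD against control. The reported values are -0.43, -0.22 and 0.21, and the SE of 0.52 shrinks to 0.20 where the replicate number is a term in the fit.

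Most of the spread of Tgm2 followed the replicate number. Its SE in the reported fit was larger than that of 78.9% of genes tested, and with the replicate number as a term it was larger than that of 16.0%. The pattern is common among genes here. In 9.06% of genes tested, all 3 replicate 1 libraries lay above the other 6, as they did for Tgm2. Of the 9 Paneth cell markers 8 had this pattern and of the 16 macrophage markers 8, with macrophage sums of 101 to 144 FPKM in replicate 1 libraries and 40.5 to 76.3 FPKM in the other 6. Of the 11 endothelial markers 2 had it, of the 10 fibroblast markers 3 and of the 12 enterocyte markers 0, and of 9 smooth muscle markers 5 were lower in all 3 replicate 1 libraries, as were 7.25% of genes tested. The part of any of these cell types in the Tgm2 values was not tested.

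A gene on the other strand overlaps Tgm2. Rprd1b, which encodes a regulator of RNA polymerase II, shares 370 exonic bases with the 4608 of Tgm2, and Gm20412, with 633 shared bases, had 0 reads. No source used here gives the strand setting of the counting, and without it reads in the shared stretch cannot be told apart. Rprd1b had 4.91, 3.53 and 3.99 FPKM in CeD+GR 1 to 3, 5.84, 4.31 and 4.23 FPKM in CeD 1 to 3, and 6.48, 4.38 and 3.72 FPKM in control 1 to 3. Its 3 replicate 1 libraries were also its highest, with a narrower range than that of Tgm2.

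The genes whose pattern was most like that of Tgm2 were sought among 10723 other protein-coding genes of at least 1 FPKM, by Pearson's r of log2(FPKM + 0.5) over the 9 libraries. They were Vegfc, a growth factor of lymphatic vessels (r = 0.988), Npnt, the matrix protein nephronectin (0.970), Bmp3, a member of the bone morphogenetic protein family (0.963), Cdc42bpg, a kinase that binds Cdc42 (0.962), and Gtf2e1, a subunit of the general transcription factor TFIIE (0.957). Spearman's rho was 0.917, 0.883, 0.933, 1 and 0.85 in the same order. The 9 libraries fall into the 3 replicate 1 libraries and the rest, which sets much of these values. Over the 6 libraries of replicates 2 and 3, r was 0.942 for Vegfc, 0.961 for Npnt, 0.822 for Bmp3, 0.904 for Cdc42bpg and 0.812 for Gtf2e1. Vegfc had 2.29, 0.570 and 0.999 FPKM in CeD+GR 1 to 3, 2.43, 1.11 and 1.41 FPKM in CeD 1 to 3, and 2.29, 0.892 and 1.16 FPKM in control 1 to 3. Like Tgm2 it was lowest in CeD+GR 2, and its highest library outside replicate 1 was CeD 3. These are descriptions of 9 libraries and carry no p, and the genes were chosen by the same values, those of replicates 2 and 3 included.

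**Figure D3:**
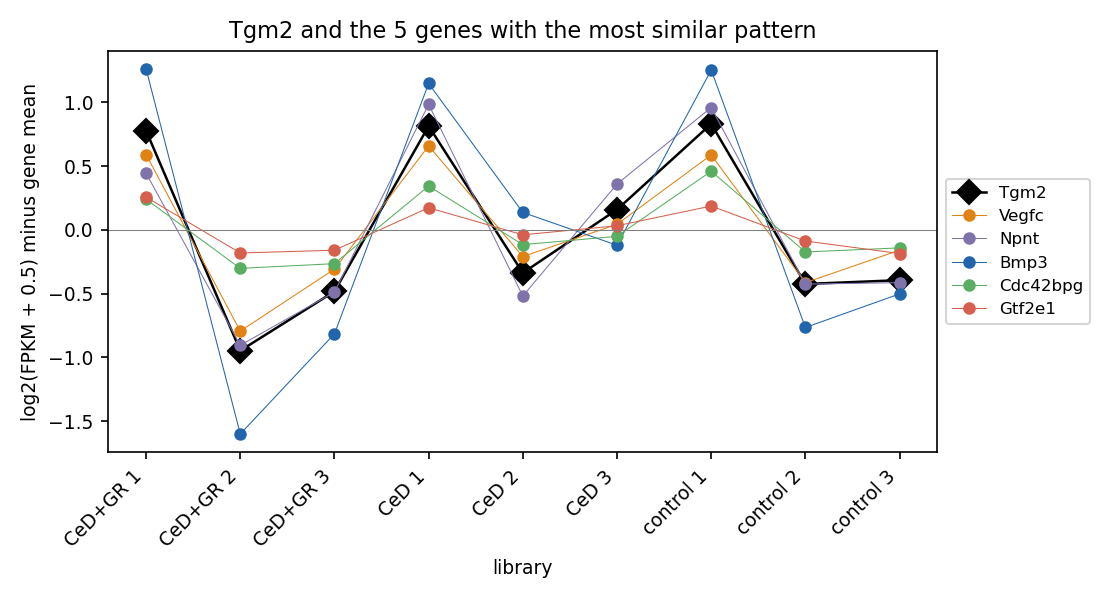
Level of Tgm2 (black diamonds) and of Vegfc, Npnt, Bmp3, Cdc42bpg and Gtf2e1 in each library (horizontal axis), as log2(FPKM + 0.5) minus the mean of the gene (vertical axis). All 6 genes peak in the 3 replicate 1 libraries and Bmp3 spans the widest range, 0.112 to 3.94 FPKM.

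F13a1 rested on 124 reads in all (ENSMUSG00000039109, chromosome 13, 36867178 to 37050244, minus strand). It had 0.0192, 0.358 and 0.1997 FPKM in CeD+GR 1 to 3, on 2, 38 and 22 reads. It had 0.0832, 0.206 and 0.126 FPKM in CeD 1 to 3, on 10, 20 and 14 reads, and 0.0408, 0.0608 and 0.0616 FPKM in control 1 to 3, on 5, 6 and 7 reads. Every CeD library lay above every control library, while CeD+GR held both the lowest and the highest library of all. The mean was 0.138 ± 0.0623 FPKM in CeD and 0.0544 ± 0.0118 FPKM in control (SD, n = 3 each), a ratio of 2.55. The exact permutation p was 0.1, the smallest possible. Such a separation with CeD above control was present in 2.62% of the 31123 genes with a read, and in 5.2% of genes with 30 to 200 reads in all, the range that holds F13a1. In the fit without the filter the log2 fold change of F13a1 was 0.20 (SE 0.18, limma adjusted p = 1). CeD+GR averaged 0.192 ± 0.170 FPKM, and its exact permutation p was 0.8 against CeD and 0.4 against control. The log2 fold change of CeD+GR was 0.09 against CeD and 0.29 against control. Without CeD+GR 1 it was 0.28 against CeD and 0.48 against control, and without CeD+GR 2 it was -0.079 against CeD and 0.12 against control.

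Factor XIII A is known in mouse and human from macrophages and platelets, and F13a1 is set beside their markers. The 16 macrophage markers summed to 70.8 to 144 FPKM in CeD+GR, 41.2 to 101 FPKM in CeD and 40.5 to 132 FPKM in control. Of the 13 tested, 3 were positive in CeD against control, beside 50.4% of all genes tested. In CeD+GR, 11 were positive against CeD, beside 51.1% of all genes tested, and 8 against control, beside 49.7%. The libraries highest in summed macrophage markers, replicate 1, averaged 0.0477 FPKM of F13a1, and the other 6 libraries averaged 0.169 FPKM. Not all markers followed the sum. Of the 16, 8 were higher in all 3 replicate 1 libraries than in the other 6, and the rest were not. Cd163 had 0.355, 1.26 and 0.986 FPKM in CeD+GR 1 to 3, and Cbr2 had 0, 1.48 and 1.11 FPKM. Both were highest in CeD+GR 2 and CeD+GR 3, the libraries of 0.358 and 0.1997 FPKM of F13a1. In CeD 2, with 0.206 FPKM of F13a1, Cd163 was at its lowest (0.229 FPKM) and Cbr2 stood at 0.157 FPKM. Cd163 and Cbr2 were picked after their values were seen. The 11 platelet and megakaryocyte markers summed to 4.09 to 8.39 FPKM in CeD+GR, 2.605 to 2.72 FPKM in CeD and 2.30 to 3.13 FPKM in control, with Treml1 at 0 in all libraries. Among them, Itga2b (2.04 FPKM) and Ppbp (0.703 FPKM) were highest in CeD+GR 2, while Pf4 (0.176 FPKM) was lowest there. CeD+GR 2, the library with the most F13a1, was also the one with 480 FPKM of adipocyte markers. The 16 macrophage markers summed to 76.3 FPKM there, below each replicate 1 library. Their part in the F13a1 values was not tested. F13b, which encodes the carrier B subunit of the plasma form and is made in liver, had 25 reads in all 9 libraries.

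Tgm1 had 83 reads in all, and its groups overlapped (ENSMUSG00000022218, chromosome 14, 55700009 to 55713926, minus strand). It had 0.225, 0 and 0.329 FPKM in CeD+GR 1 to 3, on 11, 0 and 17 reads. It had 0.213, 0.0658 and 0.249 FPKM in CeD 1 to 3, on 12, 3 and 13 reads, and 0.208, 0.0648 and 0.225 FPKM in control 1 to 3, on 12, 3 and 12 reads. The replicate 2 library was the lowest of each group. In CeD+GR 2, with 0 reads, the level of 3 reads was 0.0602 FPKM and the two-sided 95% Poisson interval reached 0.0741 FPKM. The group sums were 28 reads in CeD+GR, 28 in CeD and 27 in control, and the exact permutation p was 1 for CeD+GR against CeD, 0.7 for CeD against control and 0.9 for CeD+GR against control. With so few reads, a moderate difference was not detectable at this depth.

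Tgm3 was found in 3 of 9 libraries, 1 of each group (ENSMUSG00000027401, chromosome 2, 130012349 to 130050399, plus strand). It had 0.0921 FPKM in CeD+GR 2, on 6 reads, 0.147 FPKM in CeD 3, on 10 reads, and 0.215 FPKM in control 2, on 13 reads. The other 6 libraries had 0 reads. In these the level of 3 reads was 0.0398 to 0.0503 FPKM and the two-sided 95% Poisson interval reached 0.0490 to 0.0619 FPKM. The exact permutation p was 1 in all 3 comparisons. Of the 26 cornified envelope and squamous genes, Flg, Flg2, Sprr1b, Sprr3, Csta1 and Alox12b had 0 reads in all libraries. Krt5, the keratin of basal squamous cells, had 1 read, and Krt13, a keratin of internal squamous linings, had reads in CeD+GR 3 alone, which had no Tgm3 read.

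**Figure D4:**
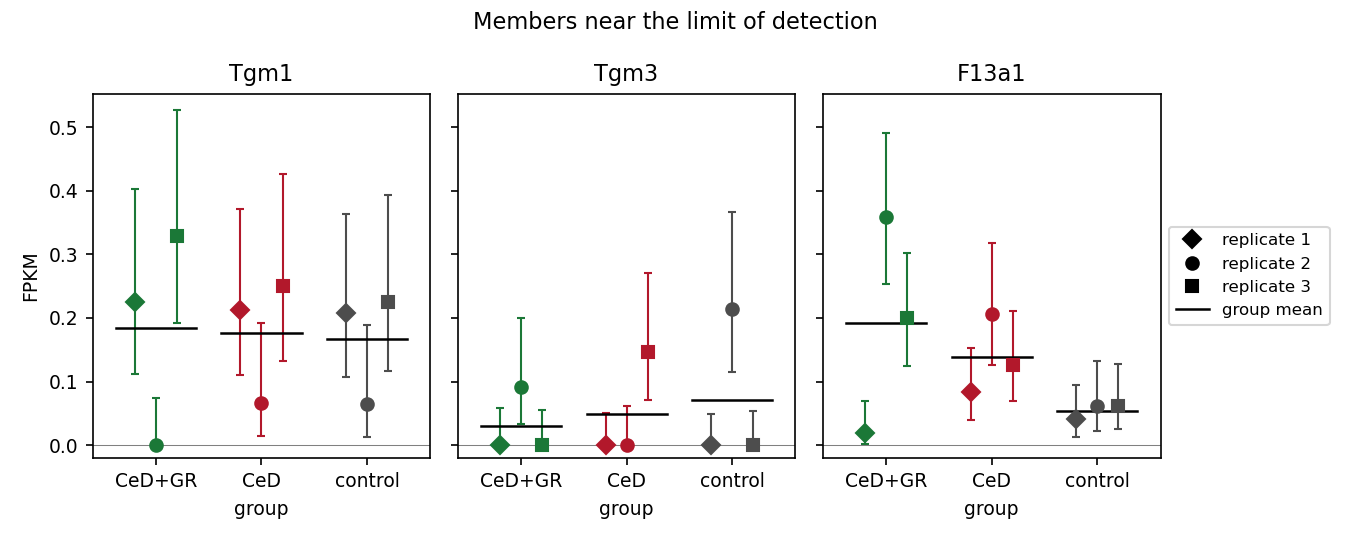
Levels of Tgm1, Tgm3 and F13a1 in FPKM (vertical axis, shared) in each library of CeD+GR, CeD and control (horizontal axis), with 95% Poisson intervals and group means. Tgm1 is lowest in the replicate 2 library of each group, Tgm3 has reads in 1 library of each group, and the 3 control libraries of F13a1 lie at or below 0.0616 FPKM.

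The remaining relatives were as scarce. Tgm4, known from prostate, had 129 reads over the 9 libraries, 37 in CeD+GR, 60 in CeD and 32 in control, in all 9 libraries. Tgm5 had 0 reads in CeD+GR, 7 in CeD and 14 in control. Tgm7 had 8 reads in all, and Epb42, the erythrocyte protein band 4.2, which lacks the catalytic cysteine in mammals, had 23. Tgm6, whose product is the autoantigen of gluten ataxia in humans, had 1 read, in CeD 3. With F13b, 0 of these 6 genes reached the filter. Of the 9 transglutaminase genes 6 lie on chromosome 2, among them Tgm2 and Tgm3.

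Genes that work with tissue transglutaminase all passed the filter. The list of matrix partners, export and redox control had 16 of 16 genes tested, with mean levels of 1.90 FPKM (P2rx7) to 786 FPKM (Txn1). In CeD+GR against CeD, 7 were positive and 9 negative with a median log2 fold change of -0.07, beside 0.01 over all genes tested. In CeD against control, 12 were positive and 4 negative with a median of 0.18, beside 0.00 over all genes, and in CeD+GR against control 9 and 7 with a median of 0.18. The shares positive over all genes tested were 51.1%, 50.4% and 49.7% in the same order. None of the 16 passed. Txn1, thioredoxin, which opens the inhibitory disulfide of the enzyme, stood at 404 to 1110 FPKM, and Pdia3, the isomerase that closes it, at 62.6 to 437 FPKM.

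Genes of that list with the smallest unadjusted p are given next. Fn1, which encodes fibronectin, the main extracellular partner of tissue transglutaminase, had 4.46, 3.41 and 3.77 FPKM in CeD+GR 1 to 3, 10.02, 5.88 and 10.97 FPKM in CeD 1 to 3, and 11.3, 3.99 and 5.42 FPKM in control 1 to 3. Every CeD+GR library lay below every CeD library, with a log2 fold change of -1.07 (SE 0.37, limma adjusted p = 1), a separation found in 3.04% of genes tested. Lrp1, the endocytic receptor that clears the enzyme, and Adgrg1, an adhesion receptor that binds it, had log2 fold changes of -0.71 (SE 0.40) and 0.94 (SE 0.65) in the same comparison. Adgrg1 stood at 23.7 FPKM in CeD+GR 3, the library with gastric transcripts, with at most 5.25 FPKM in any other library. In CeD against control, Col3a1, a collagen chain, had a log2 fold change of 0.72 (SE 0.46) and P2rx7, an ATP receptor linked to export of the enzyme, one of -0.32 (SE 0.25). All adjusted p were 1.

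Signals known to induce Tgm2 were examined as well. Of the TGF-beta and retinoic acid list, 19 of 23 genes were tested and 0 passed, with 10 positive and a median of 0.08 in CeD+GR against CeD, 11 and 0.19 in CeD+GR against control, and 11 and 0.09 in CeD against control. The shares positive over all genes tested were 51.1%, 49.7% and 50.4% in the same order. Tgfb1, the cytokine, averaged 3.595 ± 1.48 FPKM in CeD+GR and 1.69 ± 0.511 FPKM in CeD (SD, n = 3 each), with no overlap, as in 3.01% of genes tested, a log2 fold change of 0.87 (SE 0.33, limma adjusted p = 1). Rara, a retinoic acid receptor, averaged 7.06 ± 0.451 FPKM in CeD and 9.24 ± 0.831 FPKM in control (SD, n = 3 each), with no overlap, as in 2.49% of genes tested, a log2 fold change of -0.36 (SE 0.25, limma adjusted p = 1). In 4 of the 23 genes of the list all replicate 1 libraries lay above the other 6, as for Tgm2 and 9.06% of genes tested. Aldh1a3, a retinoic acid synthesizing enzyme and one of these, stood at 19.0 FPKM in CeD+GR 1, 22.3 FPKM in CeD 1 and 24.7 FPKM in control 1. It stood at 4.18 to 7.72 FPKM in the others, and was singled out after its values were seen. The same pattern was found in 4 of 23 genes of the coagulation and fibrin list, and in 3 of 18 of the interferon gamma and NF-kB list.

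Of the interferon gamma and NF-kB list, 18 of 18 genes were tested and 0 passed. In CeD+GR against CeD 8 were positive with a median of -0.05, in CeD+GR against control 6 with -0.18, and in CeD against control 6 with -0.18. The shares positive over all genes tested were 51.1%, 49.7% and 50.4% in the same order. Gbp3, an interferon-induced GTPase, averaged 8.66 ± 1.50 FPKM in CeD and 11.9 ± 2.97 FPKM in control (SD, n = 3 each), with a log2 fold change of -0.42 (SE 0.25, limma adjusted p = 1). Rela, an NF-kB subunit, averaged 17.5 ± 4.64 FPKM in CeD+GR and 13.4 ± 1.61 FPKM in CeD.

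Fibrinogen, the substrate of factor XIII, was nearly undetected. Fgb and Fgg, which encode fibrinogen chains made in liver, had 0 reads, and Fga had 5. Of the coagulation and fibrin list, 15 of 23 genes were tested and 0 passed. In CeD+GR against CeD 11 were positive with a median of 0.27, in CeD+GR against control 13 with 0.43, and in CeD against control 13 with 0.18. The shares positive over all genes tested were 51.1%, 49.7% and 50.4% in the same order. Plaur, the urokinase receptor, had 2.44, 3.23 and 12.8 FPKM in CeD+GR 1 to 3, 1.35, 0.742 and 0.626 FPKM in CeD 1 to 3, and 1.45, 0.626 and 1.45 FPKM in control 1 to 3. Every CeD+GR library lay above every other library, and the highest value was that of CeD+GR 3, the library with gastric transcripts. The log2 fold changes were 1.94 (SE 0.54, limma adjusted p = 1) against CeD and 1.70 (SE 0.54, limma adjusted p = 1) against control. All CeD+GR libraries lay above all CeD libraries in 3.01% of genes tested, and above all control libraries in 2.54%. The share for both at once was not computed.

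Of the cornified envelope list, to which the substrates of Tgm1 and Tgm3 belong, 9 of 26 genes were tested and 0 passed. In CeD+GR against CeD 7 were positive with a median of 0.30, in CeD+GR against control 6 with 0.21, and in CeD against control 3 with -0.18. The shares positive over all genes tested were 51.1%, 49.7% and 50.4% in the same order. Sprr1a, a small proline-rich protein that transglutaminases cross-link in skin, stood at 34.1 FPKM in CeD+GR 3 and at 3.20 FPKM or less in the other libraries. Krt10, a keratin, averaged 1.61 ± 0.112 FPKM in CeD+GR and 1.06 ± 0.153 FPKM in CeD (SD, n = 3 each), a log2 fold change of 0.44 (SE 0.27, limma adjusted p = 1).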

How the data were processed

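The submitters' processing notes name the build mm10 and the tools HISAT2 2.0.5, fastp, DESeq2 1.20.0 and featureCounts 1.5.0-p3, with no role or order. The deposited FPKM, which the authors made per kilobase of gene length, were used without rescaling. Deposited gene lengths and coordinates of the 4 members equal those of GENCODE M21. FPKM times length gave whole reads within 0.1 for 100% of values, and limma-voom on these called 0 genes. Levels were taken as log2(FPKM + 0.5), a gene was kept where its 9 libraries averaged 0.5 FPKM or more (14683, of which 12391 protein-coding), and a single group-means model over all groups was fitted in R 4.3.3 by limma 3.58.1 with a mean-variance trend and Benjamini-Hochberg adjustment over all genes at 0.05. All tests were two-sided, and the steps were tested on simulated data. Members and gene lists were chosen with earlier results of these data known. Named list genes have the smallest unadjusted p of their list, up to 3 a comparison, and not all of these are named. Other list genes in the text were picked after their values were seen. For CeD against control, libraries of the same number deviated together (correlations over genes of 0.71, 0.37 and 0.41, although CeD 3 had 0.46 with control 2). That pattern comes from the data, not the labels. The reported fit and the permutation tests between groups used no pairs, and the replicate number was a term in alternatives only. Alternatives changed the pseudocount, filter, scaling, libraries and replicate term.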

Additional observations from a re-analysis of the deposited data

How the results depend on the processing

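Tgm2 passed in no comparison under any of 12 alternatives or with any 1 of the 9 libraries left out. Leaving out 1 library gave log2 fold changes of -0.093 to 0.62 for CeD against control, negative without CeD 1 and, at -0.0064, without control 2, and 0.62 without control 1. It gave -0.72 to 0.19 for CeD+GR against control, positive at 0.14 without CeD+GR 2 and 0.19 without control 1, and -0.93 to -0.065 for CeD+GR against CeD. Without CeD 1 and CeD+GR 3, the value was -0.093 for CeD against control and 0.0041 for CeD+GR against CeD. With 0.1 as pseudocount the F13a1 difference was 0.60 for CeD against control and 0.72 for CeD+GR against control, as a smaller pseudocount shrinks low genes less. Leaving out 1 library, the F13a1 difference ran from -0.079 to 0.28 for CeD+GR against CeD, 0.12 to 0.48 for CeD+GR against control and 0.12 to 0.26 for CeD against control. Tgm1 and Tgm3 took both signs in each comparison, within -0.18 and 0.23. The counts of genes called stayed at 0, except for CeD+GR against control without control 1, at 1 (Gm22615, a gene picked after its values were seen).

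The fit with the replicate block left 0 genes called in each comparison and Tgm2 at -0.43, -0.22 and 0.21 with an SE of 0.20 (limma adjusted p = 0.85, 0.90 and 1) for CeD+GR against CeD, CeD+GR against control and CeD against control. Pairing by number was not taken in the reported fit, since no label gives it. CeD+GR 3 correlated at -0.12 with CeD 3 and -0.11 with control 3. A term for replicate 1, chosen after the data were seen, gave the same values with an SE of 0.22. Quantile normalization, limma-voom, the mean filter of 2 FPKM and the fit of only the groups compared gave no value for members under the filter. Depth limits Tgm1, Tgm3 and F13a1, with 83, 29 and 124 reads in all.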
